A study of Mus musculus with 21 samples.

Results

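Expression of 10 genes of polyamine synthesis and hypusination was measured by poly(A) RNA sequencing in primary mouse B cell precursors transduced with an empty vector, BCR-ABL1 or C-MYC. The genes were chosen by symbol from the 24421 rows of the deposited tables: Odc1, Srm, Sms, Amd1, Sat1, Oaz1, Oaz2, Azin1, Dhps and Dohh. All 10 are rows of the count and the FPKM tables. Of them, 8 had enough counts to be tested, and Amd1 and Oaz1 had between 0 and 1 counts in every library.

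The cells came from the bone marrow of 53BP1-/- C57BL/6 mice, so every condition, the control included, was deficient by genotype in the DNA repair factor 53BP1. Its gene, Trp53bp1, still had 15.7 to 30.2 CPM (counts per 1000000 counts of a library, with TMM scaling by edgeR) in the 6 libraries, and counts per gene do not tell which exons were read. They were kept in interleukin-7 at 10 ng/mL and infected on days 2 and 3 of culture with the retroviral vector MIGR1, either empty (EV), with the leukaemia kinase BCR-ABL1 or with the transcription factor C-MYC. RNA was taken 7 to 9 days after transduction, with 2 libraries for each condition and 20687092 to 24095955 counts per library. By the study's methods the 2 libraries of a condition are from repeated experiments. Whether these used separate mice is not given in the sources used here, and the p-values measure only the spread between these libraries.

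Polyamines are small, positively charged molecules that bind nucleic acids and are needed for growth. Ornithine decarboxylase (Odc1) makes putrescine, spermidine synthase (Srm) turns putrescine into spermidine, and spermine synthase (Sms) turns spermidine into spermine, the last steps with decarboxylated S-adenosylmethionine from Amd1. Antizymes (Oaz1, Oaz2) bind ornithine decarboxylase and send it to the proteasome, the antizyme inhibitor Azin1 holds antizymes back, and Sat1 acetylates spermidine and spermine for export or breakdown. Deoxyhypusine synthase (Dhps) uses spermidine to form deoxyhypusine in the translation factor eIF5A. Deoxyhypusine hydroxylase (Dohh) then turns it into hypusine, an amino acid of that protein. Odc1 is a textbook target of MYC, which binds the letters CACGTG, the E-box.

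Myc, which checks the C-MYC label, had a CPM of 181 and 137 in EV, 343 and 348 with BCR-ABL1, and 1740 and 1230 with C-MYC. B cell precursor markers such as Cd79a and Ebf1 were present in every library. Over 11 genes, their summed CPM was 5450 to 6210 in EV, 5680 to 6240 with BCR-ABL1 and 3230 to 3800 with C-MYC. By the edgeR test given below, Il7r, Rag1 and Cd79b were called lower than EV with BCR-ABL1, and Dntt higher. With C-MYC, 9 of the 11 were called lower, and Igll1 and Dntt were not called. Of all genes tested, 12.0% were called lower and 5.08% higher with BCR-ABL1, and 24.5% lower with C-MYC. Markers of other cell types were also read, mostly in EV: all 11 myeloid markers in the table were higher in both EV libraries than in any of the other 4. Their summed CPM was 1210 to 1300 in EV, 146 to 166 with BCR-ABL1 and 208 to 360 with C-MYC, and the sum of 8 T and NK cell markers was 118 to 174, 17.9 to 18.6 and 12.0 to 12.3. Sums of 8 stromal markers were 188 to 298, 15.9 to 16.4 and 4.32 to 5.61. Those of 6 mast cell and basophil markers were 120 to 154, 8.39 to 13.5 and 16.5 to 19.6. Among these 6, Kit alone had 69.2 and 32.9 CPM in EV, 10 and 6.32 with BCR-ABL1, and 14.8 and 14.7 with C-MYC. The sum of 7 erythroid and megakaryocyte markers was 37.7 to 47.6, 7.77 to 9.1 and 11.0 to 13.4. Of these, Pf4 alone had 28.8 and 40 CPM in EV. The erythroid gene Alas2 had 1.31 and 0.502 CPM in EV, 1.37 and 0.997 with BCR-ABL1, and 0.781 and 0.898 with C-MYC, and overlapped EV in both. Hbb-bs and Hba-a1 were at 0 counts in every library. In such bulk samples, fewer cells of a type and less RNA per cell cannot be told apart. The part of this cell mix in the differences from EV given below, rises as well as falls, was not tested.

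In C-MYC cells the synthesis enzymes Odc1, Srm and Sms rose between 2.06-fold and 3.78-fold over EV, and Dohh rose 1.69-fold. Sat1 and Oaz2 fell, and Azin1 and Dhps did not pass the test. Of the 8 genes tested, 4 were called higher and 2 lower with the threshold at 0.05 (quasi-likelihood F test of edgeR, p adjusted over 12786 genes by the method of Benjamini and Hochberg), against a background of 18.6% of all genes tested called higher and 24.5% called lower. Their median log2 fold change was 0.53, beside -0.08 over all genes tested. In BCR-ABL1 cells, Srm and Sms were called higher than in EV and none of the 8 lower (Sat1 was called lower in the model with the replicate number as a block), where 5.08% of all genes were called higher and 12.0% lower. Between C-MYC and BCR-ABL1, 4 genes were called higher in C-MYC and 1 lower, where 11.5% and 11.9% of all genes were called. For the 8 genes the median log2 fold change was 0.21 in BCR-ABL1 against EV and 0.46 in C-MYC against BCR-ABL1, and over all genes it was 0 in both. The comparisons of C-MYC and of BCR-ABL1 with EV share the EV libraries and are not independent.

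**Figure D1:**
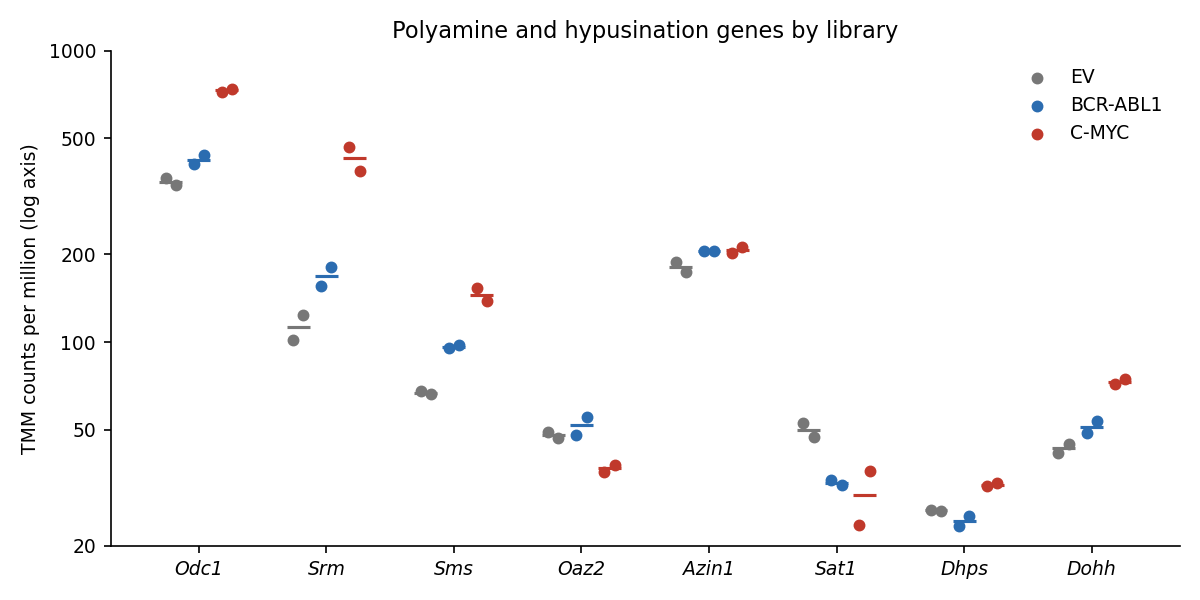
CPM with TMM scaling (log axis) of the 8 genes with enough counts, with 1 point per library and a bar at the mean of the 2 libraries of each condition. Odc1, Srm, Sms and Dohh are highest in both C-MYC libraries, Oaz2 is lowest there, and the 2 C-MYC libraries lie apart for Sat1, at 23.5 and 36.1.

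Odc1, which catalyses the first step of the pathway, had the highest FPKM of the 8 in every condition. It lies on chromosome 12 of GRCm38, from 17544794 to 17551505 on the plus strand. Its CPM was 365 and 345 in EV, 408 and 438 with BCR-ABL1, and 720 and 742 with C-MYC. The libraries of the 3 conditions did not overlap, and the C-MYC pair stood well above the others. Odc1 was 2.06-fold higher in C-MYC than in EV, a log2 fold change of 1.04 (standard error 0.09, edgeR adjusted p = 0.00035). Against BCR-ABL1 the log2 fold change was 0.79 (standard error 0.09, adjusted p = 0.00191, edgeR). The difference between BCR-ABL1 and EV, 0.25 on the log2 scale with a 95% interval from 0.04 to 0.47, did not pass the test after adjustment (edgeR adjusted p = 0.109).

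The RefSeq promoter table, with 32851 windows of 250 bases before to 50 bases after the starts of 27025 genes in GRCm38.p6, has entries for 8 of the 10 genes. Srm and Azin1 have none. The windows were searched for CACGTG, which reads the same on both strands, and for CACGCG, whose other strand is CGCGTG. No 6-letter match is both motifs. The Odc1 window holds no CACGTG but has CACGCG or CGCGTG from position -180 to -175 and from -101 to -96, counted from the start as +1. In the bases that follow, from 51 to 1000, CACGTG occurs at positions 326 to 331 and 366 to 371. This stretch was looked at after the promoter had been read. Of all starts, 12.9% have at least 1 CACGTG there and 1.39% at least 2. The 100 bases that hold both lie in intron 1 of both RefSeq transcripts of Odc1, at chr12:17545173-17545272 on the plus strand, and are shown because Odc1 is the first enzyme of the pathway and rose in C-MYC. Capitals mark CACGTG.

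Odc1 intron 1: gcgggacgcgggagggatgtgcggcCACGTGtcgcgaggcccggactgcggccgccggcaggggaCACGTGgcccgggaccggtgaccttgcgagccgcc

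Srm, on chromosome 4 from 148591503 to 148594993 (plus strand), had the largest rise of the 8 in both comparisons of C-MYC. The CPM of this spermidine synthase was 102 and 124 in EV, 155 and 181 with BCR-ABL1, and 468 and 387 with C-MYC. The conditions did not overlap, although the C-MYC libraries differed by an SD of 57.4 around 427. Srm rose 3.78-fold in C-MYC over EV (log2 fold change 1.92, standard error 0.15, edgeR adjusted p = 0.000247). Over BCR-ABL1 it rose 2.54-fold (1.35, standard error 0.15, edgeR adjusted p = 0.00151), a call that was lost in limma on unfiltered FPKM (1.29, limma adjusted p = 0.0626). Between BCR-ABL1 and EV the log2 fold change was 0.57 (standard error 0.15, edgeR adjusted p = 0.0349). That last call was lost without EV replicate 1 (0.45, edgeR adjusted p = 0.0741), without either BCR-ABL1 library, in a model of only the 4 libraries compared (edgeR adjusted p = 0.0531) and in limma on FPKM (0.51, limma adjusted p = 0.0891).

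Sms, the spermine synthase gene on the X chromosome from 157443855 to 157492287 (minus strand), had a CPM of 67.8 and 66.2 in EV, 95 and 98 with BCR-ABL1, and 153 and 138 with C-MYC. It stepped up from EV to BCR-ABL1 and again to C-MYC with no overlap. The log2 fold change was 0.53 for BCR-ABL1 against EV (standard error 0.11, edgeR adjusted p = 0.0153) and 0.59 for C-MYC against BCR-ABL1 (standard error 0.11, edgeR adjusted p = 0.00821). C-MYC exceeded EV by 1.12 (standard error 0.11, edgeR adjusted p = 0.000417). Without BCR-ABL1 replicate 1 or 2, the call between BCR-ABL1 and EV was lost (edgeR adjusted p = 0.104 and 0.146), at log2 fold changes of 0.55 and 0.5, and so was that between C-MYC and BCR-ABL1, which was lost without C-MYC replicate 1 too. In each of these fits a condition has 1 library, which is assumed to vary like the other conditions. Of the 2 Sms windows in the promoter table, the one at the gene's first start holds CACGTG from position -196 to -191, as do 7.15% of all windows. As a window that holds CACGTG it is printed here, at chrX:157492238-157492537 on the minus strand of GRCm38.p6, with CACGTG in capitals.

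Sms promoter: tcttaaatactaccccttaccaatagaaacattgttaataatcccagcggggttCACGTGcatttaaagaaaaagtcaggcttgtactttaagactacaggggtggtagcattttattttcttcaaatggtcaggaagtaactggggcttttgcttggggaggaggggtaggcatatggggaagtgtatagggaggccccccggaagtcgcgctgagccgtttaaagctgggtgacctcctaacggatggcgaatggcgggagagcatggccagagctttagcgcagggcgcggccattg

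The second Sms window has no CACGTG, and it has CACGCG or CGCGTG once, as 9.27% of all windows do. In bases 51 to 1000 after this second start, CACGTG occurs from 559 to 564, and 12.9% of all starts have at least 1 there.

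Amd1, which makes the aminopropyl donor for Srm and Sms, was at 0 counts in all 6 libraries. It lies on chromosome 10 from 40287458 to 40302186, and Amd2, a copy on the same chromosome from 35708675 to 35711892, was also at 0 counts throughout. Their transcripts are 99.6% identical over 3202 aligned bases of the GENCODE sequences. In the FPKM table both have values, which are estimates of transcript abundance per kilobase: Amd1 had 7.65 and 1.86 in EV, 1.49 and 8.14 with BCR-ABL1, and 1.42 and 1.3 with C-MYC. Amd2 had 26.1 and 37.5 in EV, 46.4 and 26.8 with BCR-ABL1, and 75.0 and 68.6 with C-MYC. The share of Amd1 in the sum ranged from 1.86% to 23.3% between libraries, so the values of either row alone are uncertain.

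The sum of both rows was 33.8 and 39.3 FPKM in EV, 47.9 and 34.9 with BCR-ABL1, and 76.5 and 69.9 with C-MYC. Both C-MYC libraries stood above the other 4, while EV and BCR-ABL1 overlapped. Fitted as 1 feature, a step chosen after the zeros were seen, the sum was higher in C-MYC than in EV by 0.98 on the log2(FPKM + 1) scale (standard error 0.17, limma adjusted p = 0.00643) and than in BCR-ABL1 by 0.82 (standard error 0.17, limma adjusted p = 0.0237). Between BCR-ABL1 and EV it differed by 0.16, with a 95% interval from -0.25 to 0.57 (limma adjusted p = 0.597). The difference from BCR-ABL1 lost its call when any library of C-MYC or BCR-ABL1 was left out, and both calls were lost with no filter on low FPKM.

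**Figure D2:**
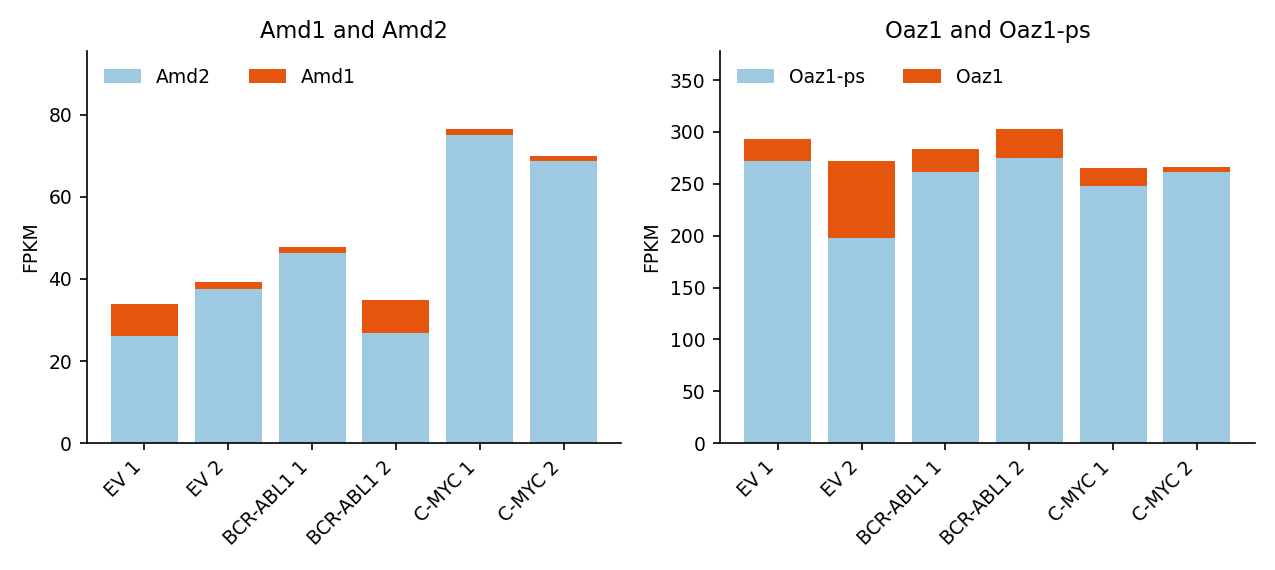
FPKM per library (bars start at 0) of Amd1 stacked on its copy Amd2, and of Oaz1 stacked on Oaz1-ps. The Amd1 and Amd2 sum is 69.9 to 76.5 in C-MYC and 33.8 to 47.9 in the other libraries, while the Oaz1 and Oaz1-ps sum stays between 265 and 303 and its split differs most in EV replicate 2.

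Oaz1, the major antizyme gene, was read in the same way. It lies on chromosome 10 from 80826656 to 80829290 and had 1 count in EV replicate 2 and in C-MYC replicate 2 and 0 in the other 4 libraries. The processed pseudogene Oaz1-ps on chromosome 17, 99.3% identical to Oaz1 over 685 bases, was at 0 counts. Together they had an FPKM of 293 and 272 in EV, 283 and 303 with BCR-ABL1, and 265 and 266 with C-MYC. Most of this stood under the pseudogene, with Oaz1 itself at 21.2 and 73.9, 21.8 and 27.7, and 17.4 and 5.11 FPKM. The summed value differed by -0.09 between C-MYC and EV on the log2(FPKM + 1) scale (limma adjusted p = 0.444), by -0.14 between C-MYC and BCR-ABL1 (limma adjusted p = 0.294) and by 0.05 between BCR-ABL1 and EV (limma adjusted p = 0.757). None of these 3 differences passed the test. In the whole table, 134 rows had no more than 3 counts in every library and a mean FPKM above 1, as these 4 did.

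Oaz2, the second antizyme gene (chromosome 9 from 65668001 to 65690300, plus strand), had a CPM of 49.3 and 46.9 in EV, 48.0 and 55.5 with BCR-ABL1, and 35.9 and 37.7 with C-MYC. Both C-MYC libraries lay below the other 4, and EV and BCR-ABL1 overlapped. Oaz2 fell by 0.39 on the log2 scale in C-MYC against EV (standard error 0.13, edgeR adjusted p = 0.0441) and by 0.49 against BCR-ABL1 (standard error 0.13, edgeR adjusted p = 0.0305). The call against EV was lost with DESeq2's size factors (edgeR adjusted p = 0.066), with DESeq2 (adjusted p = 0.0662), with no filter on low counts (edgeR adjusted p = 0.0734), in a model of only the 4 libraries (edgeR adjusted p = 0.13), in limma on unfiltered FPKM (limma adjusted p = 0.0566) and when any library other than EV replicate 2 was left out, and it held in 4 of 14 alternatives. The call against BCR-ABL1 was lost when any library of C-MYC or BCR-ABL1 was left out, with log2 fold changes from -0.59 to -0.37. In limma on unfiltered FPKM it was lost too (-0.53, limma adjusted p = 0.0965).

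Azin1, the antizyme inhibitor gene on chromosome 15 from 38487427 to 38519266 (minus strand), had a CPM of 188 and 174 in EV, 205 and 205 with BCR-ABL1, and 202 and 211 with C-MYC. C-MYC and BCR-ABL1 overlapped, and EV lay slightly lower. No comparison passed the test, with a log2 fold change of 0.19 between C-MYC and EV and a 95% interval from -0.04 to 0.41 (edgeR adjusted p = 0.162). Between C-MYC and BCR-ABL1 the estimate was 0.01, with an interval from -0.22 to 0.24. The FPKM of Azin1 in EV replicate 2, 37.1 beside 66.6 in replicate 1, departed from the near-equal counts. An antisense gene, Gm49077, shares 358 exonic bases with Azin1 in the annotation, and the handling of strand in the counts is not given in the sources used here.

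Within each library, Odc1 was set against the antizymes as a ratio. The log2 ratio of Odc1 to Oaz2 counts was 2.89 and 2.88 in EV, 3.09 and 2.98 with BCR-ABL1, and 4.33 and 4.30 with C-MYC. It was higher by 1.43 in C-MYC than in EV, a 2.69-fold change of the ratio, and by 0.15 in BCR-ABL1 than in EV. With 2 libraries against 2, an exact 2-sided permutation test cannot go below p = 0.333, which all 3 comparisons of this ratio gave. By FPKM, the log2 ratio of Odc1 to the sum of Oaz1 and Oaz1-ps was 0.24 and 0.28 in EV, 0.38 and 0.39 with BCR-ABL1, and 1.23 and 1.31 with C-MYC, higher by 1.01 in C-MYC than in EV (exact permutation p = 0.333). The ratio of Azin1 to Oaz2 counts was 1.93 and 1.89 in EV and 2.49 and 2.48 in C-MYC on the log2 scale, and in BCR-ABL1 it was 2.09 and 1.88, which overlapped EV. Oaz2 replaced Oaz1 in the count ratios after the counts of Oaz1 were seen.

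Sat1, the acetyltransferase that starts polyamine breakdown (X chromosome from 155213132 to 155216449, minus strand), was highest in EV. Its CPM was 52.6 and 47.3 in EV, 33.6 and 32.2 with BCR-ABL1, and 23.5 and 36.1 with C-MYC. The C-MYC libraries lay on either side of the BCR-ABL1 pair, and all 4 lay below EV. In C-MYC it fell by 0.74 on the log2 scale against EV (standard error 0.20, edgeR adjusted p = 0.0193). Without C-MYC replicate 1 this call was lost, at a log2 fold change of -0.46. It was also lost in a model of only the 4 libraries (-0.69, edgeR adjusted p = 0.0506) and in limma on unfiltered FPKM (-0.72, limma adjusted p = 0.134). In BCR-ABL1 the log2 fold change was -0.60 (standard error 0.20, edgeR adjusted p = 0.0795), which passed the test in 5 of 14 alternatives, among them the model with the replicate number as a block (edgeR adjusted p = 0.045). The markers of myeloid, T and NK, stromal and mast cells given above were highest in EV in the same libraries, and their part in the Sat1 difference was not tested.

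Of the hypusination enzymes, Dohh rose in C-MYC and Dhps did not pass the test. Dohh, on chromosome 10 from 81384428 to 81388352 (plus strand), had a CPM of 41.6 and 44.7 in EV, 48.6 and 53.6 with BCR-ABL1, and 71.7 and 74.5 with C-MYC. Its conditions did not overlap. The log2 fold change was 0.76 against EV (standard error 0.12, edgeR adjusted p = 0.00221) and 0.52 against BCR-ABL1 (standard error 0.12, edgeR adjusted p = 0.0199). The call against BCR-ABL1 was lost when any library of C-MYC or BCR-ABL1 was left out and in limma on FPKM (0.41, limma adjusted p = 0.0614). In BCR-ABL1 the log2 fold change over EV was 0.24, with a 95% interval from -0.04 to 0.52. An annotated gene on the same strand, Gm48551, shares 972 exonic bases with Dohh.

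The Dohh window of the promoter table, chr10:81384184-81384483 on the plus strand of GRCm38.p6, holds CACGTG just after the start, from position 3 to 8, and the bases beyond the window hold another from 386 to 391. It is shown as the other window of the 10 genes with CACGTG, in capitals. With Sms, 2 of the 8 genes with an entry had CACGTG in a promoter window, beside 7.15% of all windows, and Sms has 2 windows. In bases 51 to 1000, 12.9% of all starts have at least 1 CACGTG. The windows of Oaz2, Amd1, Sat1 and Dhps held neither motif. The Oaz1 window had CACGCG or CGCGTG from -212 to -207. These letter matches describe the sequence and do not show binding.

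Dohh promoter: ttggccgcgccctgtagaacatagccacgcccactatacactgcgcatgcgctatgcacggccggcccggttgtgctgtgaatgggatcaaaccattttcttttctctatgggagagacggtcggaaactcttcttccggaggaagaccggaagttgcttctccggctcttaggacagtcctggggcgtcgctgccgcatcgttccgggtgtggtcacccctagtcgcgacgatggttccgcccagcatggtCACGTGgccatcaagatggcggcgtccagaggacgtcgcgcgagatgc

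Dhps, on chromosome 8 from 85071757 to 85075162 (plus strand), had a CPM of 26.6 and 26.3 in EV, 23.4 and 25.2 with BCR-ABL1, and 32.0 and 32.7 with C-MYC. Both C-MYC libraries were the highest, but the log2 fold change of 0.29 over EV had a 95% interval from -0.01 to 0.59 (edgeR adjusted p = 0.103). Over BCR-ABL1 it was 0.41 (standard error 0.13, edgeR adjusted p = 0.0555), and this passed the test with DESeq2's size factors (edgeR adjusted p = 0.0452), with DESeq2 (adjusted p = 0.0292), with the replicate number as a block (edgeR adjusted p = 0.0323) and in 3 further alternatives. Dhps shares 128 exonic bases with Wdr83 on the other strand.

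**Figure D3:**
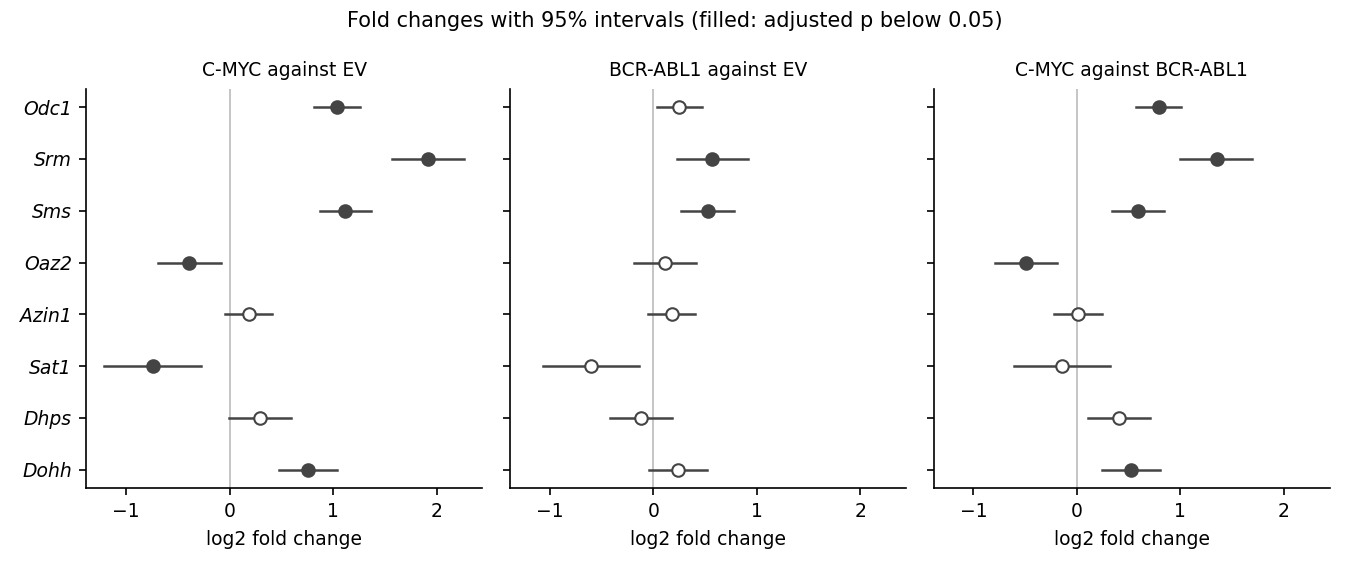
Log2 fold changes from edgeR of the 8 genes in the 3 comparisons, with 95% intervals. Filled points had an adjusted p below 0.05. Against EV, the largest in C-MYC are Srm at 1.92 and Sms at 1.12, and the interval of Azin1 spans 0 in all 3 panels.

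Eif5a, the gene of the protein that carries hypusine, rose over EV with both oncogenes. Its CPM was 1290 and 1200 in EV, 1860 and 1810 with BCR-ABL1, and 2900 and 2370 with C-MYC. It rose with no overlap by a log2 fold change of 0.56 in BCR-ABL1 (edgeR adjusted p = 0.0146) and 1.08 in C-MYC (edgeR adjusted p = 0.000506) over EV. The minor paralog Eif5a2 was at 19.0 and 17.4 CPM in EV, 31.3 and 30.4 with BCR-ABL1, and 26.1 and 26.6 with C-MYC, and it was called higher than EV in both. Between C-MYC and BCR-ABL1, Eif5a had a log2 fold change of 0.52 (edgeR adjusted p = 0.016) and Eif5a2 one of -0.23 (edgeR adjusted p = 0.257), and the difference between the paralogs was not tested.

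Levels were compared between genes per length. By FPKM, the order in EV was Odc1 at 338 ± 11.2, Srm at 140 ± 21.7, Oaz2 at 57.4 ± 1.3, Azin1 at 51.8 ± 20.8, Sms at 42.5 ± 0.370, Sat1 at 7.26 ± 0.436, Dohh at 5.99 ± 0.265 and Dhps at 5.26 ± 0.147 (SD, n = 2 for each). Azin1 overlapped both of its neighbours in this order, Oaz2 and Sms. In BCR-ABL1, Odc1 and Srm came first again, at 384 ± 19.9 and 199 ± 24.2 FPKM, followed by Azin1, then Oaz2 and Sms, which overlapped, then Dohh, and last Dhps and Sat1, which overlapped. In C-MYC the order was Odc1 at 639 ± 27.6, Srm at 487 ± 52.5, Sms at 85.3 ± 2.05, Azin1 at 66.3 ± 2.53, Oaz2 at 40.4 ± 2.64, Dohh at 9.28 ± 0.467, Dhps at 6.01 ± 0.364 and Sat1 at 4.12 ± 1.36, with no neighbours that overlapped. Sms lay below Oaz2 in EV and above both Azin1 and Oaz2 in C-MYC.

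This order rests on the unit. As CPM per kilobase of annotated exon, Srm at 267 ± 35.9 exceeded Odc1 at 215 ± 4.46 in C-MYC without overlap. On that scale Dohh ranked just behind them, at 35.7 ± 0.964, and Sms was last in EV, at 11.2 ± 0.190. Only 2 of 8 genes kept their FPKM rank in EV and in C-MYC, and 3 in BCR-ABL1. FPKM was 3.61 times CPM per kilobase for Sms and 0.269 times for Dohh over the 6 libraries. Odc1 and Srm were above the other 6 genes in every condition on both scales.

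The 5 genes whose profile was most like that of Odc1 were Tsr1, Mrpl36, Setd6, Ppa1 and Gtpbp4, among 10622 genes whose counts averaged 50 or more over the 6 libraries. The root mean square difference of their centred log2 CPM from that of Odc1 was 0.042 to 0.049. Tsr1, a factor of ribosome assembly, had 56.9 and 53.3 CPM in EV, 65.6 and 63.9 with BCR-ABL1, and 112 and 114 with C-MYC. As 6 libraries in 3 conditions set this likeness, it describes the step from EV and BCR-ABL1 to C-MYC and has no test.

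The wider pathway was read from 4 lists with 35 genes, of which 25 had enough counts. The lists hold genes of ornithine supply, S-adenosylmethionine, catabolism, transport and regulation, and also Eif5a and Eif5a2, substrates of hypusination. Eif5a and Eif5a2 are among the genes called higher than EV with each oncogene. In C-MYC against EV, 15 of the 25 were called higher and 2 lower, with a median log2 fold change of 0.56. Of all genes tested, 18.6% and 24.5% were called. In BCR-ABL1 against EV, 3 were called higher and 4 lower (median 0.12), beside 5.08% and 12.0% of all genes. In C-MYC against BCR-ABL1, 11 were called higher and 1 lower (median 0.52), beside 11.5% and 11.9%. The medians over all genes tested were -0.08, 0 and 0.

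Of 7 tested genes in the ornithine supply list, 4 were called higher in C-MYC than in EV and none lower, where 18.6% and 24.5% of all genes were called. Pycr1 is among these 4, but its product is proline and not ornithine. It had a log2 fold change of 1.42 (edgeR adjusted p = 0.00253), at 2.94 and 3.39 CPM in EV and 8.87 and 8.13 in C-MYC. Slc7a1, the arginine and ornithine transporter, had 1.05, Aldh18a1, which makes the precursor of both proline and ornithine, 0.80, and the mitochondrial ornithine carrier Slc25a15 0.69. In BCR-ABL1, none was called higher and the arginases Arg1 and Arg2 were called lower, where 5.08% and 12.0% of all genes were called. Arg2 had few counts, 57 and 18 in EV, 2 and 5 with BCR-ABL1, and 11 and 10 with C-MYC. Its log2 fold change in C-MYC against EV, -1.82, did not pass the test (edgeR adjusted p = 0.0549). Arg1 was at 17.1 and 5.81 CPM in EV, 0.379 and 0.291 with BCR-ABL1, and 5.61 and 7.86 with C-MYC, and the EV libraries, which differed widely, also had the highest myeloid markers, whose part in this was not tested.

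Of 8 tested genes that make S-adenosylmethionine or salvage its by-products, 6 were called higher in C-MYC than in EV and none lower, against the same 18.6% and 24.5% of all genes. Ahcy, which clears S-adenosylhomocysteine, rose by a log2 fold change of 1.16 (edgeR adjusted p = 0.000306), from 104 and 111 CPM in EV to 237 and 240 in C-MYC. The methylthioadenosine salvage genes Mtap, Enoph1 and Adi1 had 1.06, 1.01 and 0.90. Mtap takes up the by-product of Srm and Sms, and it was the only gene of this list called higher in BCR-ABL1 than in EV (0.83, edgeR adjusted p = 0.00271), at 81.8 and 81.2 CPM in EV and 139 and 151 in BCR-ABL1.

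Of the list of catabolism, transport and other regulators, 3 genes were called higher and 2 lower among 8 tested in C-MYC against EV, where 18.6% of all genes were called higher and 24.5% lower, so the share called lower was near that of all genes. The polyamine oxidase gene Paox had a log2 fold change of 0.98, the amino acid transporter subunit gene Slc3a2 0.71, the lysosomal polyamine exporter gene Atp13a2 -0.86, and the heparan sulfate proteoglycan gene Gpc1 -2.41. Gpc1 was at 15.6 and 13.8 CPM in EV, 1.85 and 1.83 with BCR-ABL1, and 3.22 and 2.29 with C-MYC. The spermine oxidase gene Smox was at 6.68 and 6.19 CPM in EV, 1.14 and 1.29 with BCR-ABL1, and 2.71 and 4.67 with C-MYC, and it was called lower in BCR-ABL1 (-2.40, edgeR adjusted p = 0.00355) but not in C-MYC (-0.80, edgeR adjusted p = 0.0684), with C-MYC above BCR-ABL1 by 1.60 (edgeR adjusted p = 0.0143). Smox and Gpc1 were highest in EV, as were the sums of myeloid and stromal markers, whose part in these differences was not tested.

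**Figure D4:**
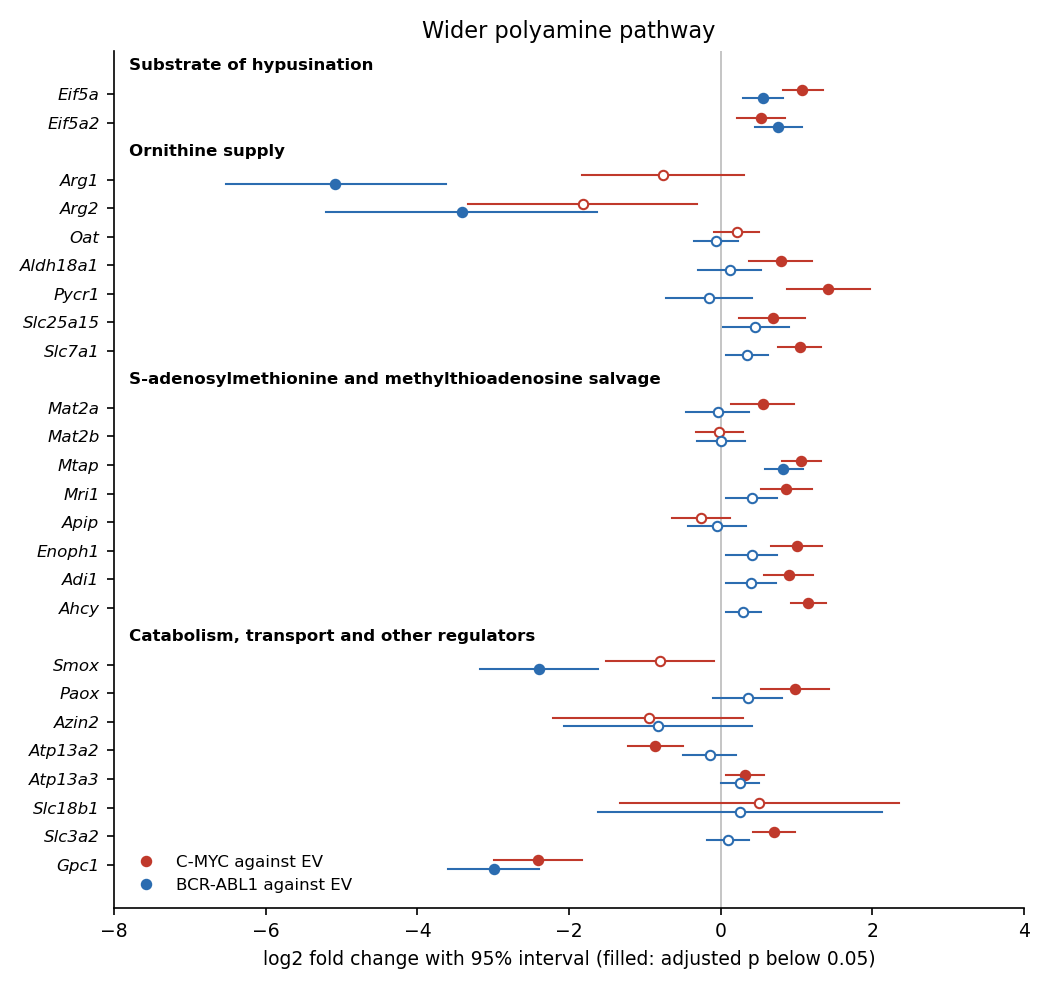
Log2 fold changes from edgeR, with 95% intervals, of the 25 tested genes of the wider pathway in C-MYC (red) and BCR-ABL1 (blue) against the shared EV libraries. Filled points had an adjusted p below 0.05. In C-MYC 15 genes were called higher and 2 lower, beside 18.6% and 24.5% of all genes tested. In BCR-ABL1 3 were called higher and 4 lower, beside 5.08% and 12.0%.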

How the data were processed

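The 6 poly(A) RNA-seq libraries were grouped by their labels. Per the labels and the methods of the study, the authors aligned reads to GRCm38/mm10 with STAR 2.5.0 and deposited whole-number counts per gene symbol, not normalized. Deposited FPKM, per the labels, came from StringTie 1.3.0. The counting program and its handling of strand are not given in the sources used here. Both tables hold 0 columns of other samples. The ChIP-seq samples were not analysed here.

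Counts were tested in edgeR 4.0.16 (R 4.3.3) with all 6 libraries in 1 model, filterByExpr by condition (12786 of 24421 genes kept), TMM, the quasi-likelihood test and Benjamini-Hochberg adjustment over all genes tested, with a threshold of 0.05. A standard error is the absolute log2 fold change divided by the square root of F. CPM are TMM-scaled. Summed FPKM were tested in limma 3.58.1 on log2(FPKM + 1), with genes above 1 FPKM in at least 2 libraries. Such fold changes understate those of low genes. The common biological coefficient of variation was 0.151, so the spread of 2 libraries limits precision more than depth does. By sampling alone, a count of 0 is compatible with up to 3 counts. This does not bound Amd1, Amd2, Oaz1 and Oaz1-ps, whose FPKM were above 1 in every library.

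Promoter windows are RefSeq's for GRCm38.p6. Loci, exon lengths and transcript identities (Biopython local alignment) are from GENCODE vM21, 1-based. The design named ratios to Oaz1, which has too few counts, and Oaz2 or summed FPKM took its place. The genes, lists and tests were chosen with earlier results of these data known. Named genes are all members, Eif5a and up to 4 genes per list with the largest change among those called in C-MYC against EV, the 5 genes most like Odc1, and Myc. Arg1, Arg2, Smox, Eif5a2, Amd2, Oaz1-ps, Trp53bp1 and the overlapping genes were named after their values were seen. Alternatives were DESeq2's size factors, DESeq2 1.42.0, no filter, 4 libraries only, a replicate block, limma on FPKM with other pseudocounts (0.1) or no filter, and leaving out each library. Some marker genes are not reported here and were left out of the marker sums.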

Additional observations from a re-analysis of the deposited data

How the results depend on the processing

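Over 14 alternatives, Odc1, Srm, Sms and Dohh stayed called higher in C-MYC than in EV in all 14, with log2 fold changes of 0.92 to 1.1, 1.78 to 2.07, 0.99 to 1.2 and 0.56 to 0.81. Of 336 repeats of the log2 fold changes of 8 genes, 281 kept direction and side of the threshold, 38 lost the call, 11 gained it and 6 turned sign, all 6 in comparisons not called: Azin1 in C-MYC against BCR-ABL1 (-0.06 in limma on FPKM under both pseudocounts and with no filter, and -0.02 to 0.04 when a library was left out), Sat1 in the same comparison (-0.48 to 0.13 when a library was left out, 0.13 without C-MYC replicate 1) and Oaz2 in BCR-ABL1 against EV (-0.0033 without BCR-ABL1 replicate 2, up to 0.21 without replicate 1).

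The number of the 10 genes called in BCR-ABL1 against EV was 2, but 1 in each limma fit on FPKM, and 0 to 3 when a library was left out. In C-MYC against BCR-ABL1 it was 5, but 2 in limma with no filter, and 2 to 6 when a library was left out. Over all genes, the calls were 5515 in C-MYC against EV (3010 in limma with no filter, 3329 to 6077 when a library was left out), 2180 in BCR-ABL1 against EV (1257, 1251 and 703 in limma with pseudocounts of 1 and 0.1 and with no filter, 665 to 2729 when a library was left out), and 2991 in C-MYC against BCR-ABL1 (4538 with only the 4 libraries, 693 in limma with no filter, 618 to 4519 when a library was left out). A filter-free limma fit tests more genes. Leaving out a library removes 1 of 2 replicates, but calls then rose in some fits and fell in others. In C-MYC against BCR-ABL1, a model with no EV library gave 4538 calls, more than the 2991 with all 6 libraries. The spread between replicates, as a chi-square per degree of freedom, was 42.9 for EV, 19.1 for C-MYC and 10.1 for BCR-ABL1. The part of the EV spread in these shifts was not tested.

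The sum of Amd1 and Amd2 lost its call with no filter in C-MYC against EV (0.98, limma adjusted p = 0.0586) and against BCR-ABL1 (0.82, limma adjusted p = 0.141). It ranged from 0.6 to 1.04 against BCR-ABL1 and from -0.06 to 0.38 in BCR-ABL1 against EV when a library was left out. For Oaz1 and Oaz1-ps, BCR-ABL1 against EV, the range was -0.0039 to 0.11. The Azin1 to Oaz2 ratio moved to 0.93 in C-MYC against EV and 0.45 in BCR-ABL1 against EV with FPKM, and from -0.03 to 0.18 in the latter when a library was left out. The order of levels kept 2, 3 and 2 of 8 ranks in EV, BCR-ABL1 and C-MYC per kilobase of exon, and at least 4 when a library was left out. The cause of these shifts was not tested.

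Libraries with the same replicate number shared deviations (r = 0.42, 0.32 and 0.35 between conditions), but they share only a number as far as the labels say. With the replicate block, 6, 3 and 6 of the genes were called in C-MYC against EV, BCR-ABL1 against EV and C-MYC against BCR-ABL1, and 6631, 3224 and 4278 of all genes. The block added the calls of Sat1 in BCR-ABL1 against EV and Dhps in C-MYC against BCR-ABL1 and changed no other call of the 8 genes. The ratios to Oaz1 from counts were not run. Depth does not limit the 8 genes tested, which had at least 494 counts in every library.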
